A study of Homo sapiens with 6 samples.

Results

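The 39 genes described here encode the proteasome, its activators and its assembly factors, taken as every gene on the array whose symbol is PSMA, PSMB, PSMC, PSMD, PSME, PSMF or PSMG followed by a number. They were 39 of the 11963 genes with a probe set annotated to a single gene, and all 39 were bright enough to be tested among 8045 genes. PSMA6 and PSME2 are not among them, because their probe sets carry several gene symbols. RNA came from HT1080, a cell line established from a human fibrosarcoma, on 6 single-channel oligonucleotide arrays in 3 groups of 2. In the MT1-MMP siRNA group the cells had received the pGUS vector expressing GFP together with an siRNA against MT1-MMP, a membrane-anchored collagenase encoded by MMP14. In the alpha3 siRNA group the same vector expressed GFP and an siRNA against integrin alpha3, a laminin receptor subunit encoded by ITGA3. In the mock group the vector expressed GFP alone. All cells therefore carried pGUS and GFP, and the labels give no clone, time point or culture for any array. Nothing says that the 2 arrays of a group were separate cultures, so the p-values cover only array-to-array spread, possibly technical, and the small number of arrays limits the precision.

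The proteasome is the protease that degrades ubiquitin-tagged proteins in the cytosol and nucleus. Its core particle is a stack of rings, the outer ones built from alpha subunits (PSMA genes) and the inner ones from beta subunits (PSMB genes), of which PSMB5, PSMB6 and PSMB7 carry the proteolytic sites. A regulatory particle caps the core: its base holds ATPases (PSMC genes) that unfold substrates and non-ATPase subunits that bind them, and its lid (most other PSMD genes) removes ubiquitin. Interferon-gamma induces PSMB8, PSMB9 and PSMB10, which replace the constitutive catalytic subunits in the immunoproteasome, and PSME1 and PSME2, which form an alternative cap; both changes favour peptides presented by MHC class I. The transcription factor NFE2L1 raises proteasome genes together when proteasome activity is limiting.

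Signals are the deposited linear intensities per probe set, with a median over all probe sets between 72.9 and 83.1 on the 6 arrays. MMP14 had signals of 812 and 717 with MT1-MMP siRNA, against 1971 and 3064 on the mock arrays, and alpha3 siRNA gave ITGA3 signals of 148 and 347, against 1139 and 1290 in mock cells. MMP14 was also below both mock arrays in the alpha3 siRNA group, at 999 and 1804 (log2 difference -0.86, adjusted p = 0.851). Neither target passed the threshold against mock (adjusted p = 0.139 for MMP14 with MT1-MMP siRNA and 0.136 for ITGA3 with alpha3 siRNA). Brightness of the 18 hybridisation controls relative to the mock average had a median of 2.30 and 1.29 on the MT1-MMP siRNA arrays, 0.812 and 0.841 on the alpha3 siRNA arrays and 0.927 and 1.07 on the mock arrays, and their part in the results was not tested. All 6 mesenchymal markers passed the filter, with signals between 12271 and 17700 for vimentin (VIM) but between 22.8 and 89.7 for S100A4. The defining leukocyte marker PTPRC stayed at 21.9 or below on all 3 of its probe sets, while CD3E (61.5 to 107), CD2 (43.3 to 75.9) and the brighter probe set of ITGAM (61.1 to 107) passed the filter. The 7 leukocyte markers on the array, of 8 listed, had summed signals of 296 and 313 with MT1-MMP siRNA, 360 and 213 in the alpha3 siRNA group and 304 and 297 in mock. Of the 4 epithelial markers only KRT8 passed the filter, with 609 and 431 with MT1-MMP siRNA, 1457 and 945 in the alpha3 siRNA group, and 485 and 609 in mock (log2 difference 1.07 for alpha3 siRNA against mock, adjusted p = 0.775). The part of these markers in the results was not tested.

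The promoters below are shown as examples for the patterns described in what follows. PSMD1 and PSMD3 were among the lowest with MT1-MMP siRNA relative to mock. PSMD2, PSMD11 and PSMA5 had lower log2 differences than PSMD3 and are not shown. PSME1 and PSMB9 lay above both mock arrays, and PSMB8 is an immunoproteasome gene whose arrays overlapped mock. TAP1, a gene of the peptide transporter, starts beside PSMB9 on the other strand. Each window runs from 250 bases before to 50 bases after the start of the gene in RefSeq (GRCh38.p14), read along the gene. Capitals mark matches on either strand to TGACNNNGC, the core of the antioxidant response element that NFE2L1 binds, or to the core of the interferon-stimulated response element, searched as GAAA, any 2 bases, GAAA.
PSMD1, chr2:231056617-231056916, plus strand: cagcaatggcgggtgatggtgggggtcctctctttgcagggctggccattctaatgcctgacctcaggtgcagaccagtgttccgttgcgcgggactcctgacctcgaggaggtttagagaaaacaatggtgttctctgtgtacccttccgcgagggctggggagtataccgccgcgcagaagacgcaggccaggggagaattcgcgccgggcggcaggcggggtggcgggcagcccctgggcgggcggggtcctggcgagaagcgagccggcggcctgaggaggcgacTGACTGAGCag
PSMD3, chr17:39980557-39980856, plus strand: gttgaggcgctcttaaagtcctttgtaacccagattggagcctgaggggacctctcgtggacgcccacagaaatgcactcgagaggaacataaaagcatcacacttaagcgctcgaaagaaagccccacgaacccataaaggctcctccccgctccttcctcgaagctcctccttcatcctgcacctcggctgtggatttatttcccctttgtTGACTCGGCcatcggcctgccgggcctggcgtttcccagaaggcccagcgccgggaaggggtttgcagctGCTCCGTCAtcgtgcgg
PSME1, chr14:24135944-24136243, plus strand: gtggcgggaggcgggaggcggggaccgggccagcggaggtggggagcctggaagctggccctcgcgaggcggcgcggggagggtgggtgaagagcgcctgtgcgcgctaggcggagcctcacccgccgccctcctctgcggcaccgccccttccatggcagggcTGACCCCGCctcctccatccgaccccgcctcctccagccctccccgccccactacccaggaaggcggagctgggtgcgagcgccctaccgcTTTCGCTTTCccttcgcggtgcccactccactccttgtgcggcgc
PSMB8, chr6:32843998-32844297, minus strand: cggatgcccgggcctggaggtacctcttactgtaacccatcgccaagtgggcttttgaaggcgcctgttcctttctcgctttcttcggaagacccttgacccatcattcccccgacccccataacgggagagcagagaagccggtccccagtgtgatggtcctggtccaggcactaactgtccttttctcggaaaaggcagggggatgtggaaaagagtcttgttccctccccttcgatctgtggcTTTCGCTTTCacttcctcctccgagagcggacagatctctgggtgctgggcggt
PSMB9, chr6:32853942-32854241, plus strand: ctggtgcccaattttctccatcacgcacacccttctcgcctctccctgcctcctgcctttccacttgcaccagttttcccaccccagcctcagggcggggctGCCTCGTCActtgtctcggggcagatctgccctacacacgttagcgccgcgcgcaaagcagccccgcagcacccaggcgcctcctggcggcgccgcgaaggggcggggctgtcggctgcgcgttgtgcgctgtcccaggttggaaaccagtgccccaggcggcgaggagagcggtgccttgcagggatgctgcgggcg
TAP1, chr6:32853655-32853954, minus strand: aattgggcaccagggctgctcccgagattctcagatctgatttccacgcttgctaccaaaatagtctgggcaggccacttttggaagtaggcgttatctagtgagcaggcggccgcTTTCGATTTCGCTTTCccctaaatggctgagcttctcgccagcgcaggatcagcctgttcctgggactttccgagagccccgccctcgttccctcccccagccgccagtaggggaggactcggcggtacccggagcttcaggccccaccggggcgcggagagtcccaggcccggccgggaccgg

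The PSMD1 window holds 1 match to TGACNNNGC, inside the first 50 bases of the transcript, and the PSMD3 window holds 2. The PSME1 window holds 1 match to each motif and the PSMB9 window 1 match to TGACNNNGC. In the PSMB8 window there is 1 match to the interferon element (shown for the start that has it, of 2 listed). The TAP1 window holds 2 matches to the interferon element that overlap each other. It is 1 of 2 starts listed and was picked by its number of matches. No match to one motif overlaps a match to the other in these windows. RefSeq windows were found for 34 of the 39 genes, in 41 windows. TGACNNNGC was present in 31.7% of these windows, against 13.3% of all 35116 windows, the interferon element in 12.2% against 3.57%, and CCAAT, the box bound by NF-Y, in 41.5% against 34.6%. The genes with an interferon element match were PSMA4, PSMB4, PSMB8, PSMB10 and PSME1, and the genes with a TGACNNNGC match numbered 13. PSMD1 and PSMD3 were among these 13, while PSMD2, PSMD11 and PSMA5 were not. A match is a string of letters in a window and was not tested as a binding site.

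With MT1-MMP siRNA, most proteasome genes had lower signals than in mock cells. Medians were -0.35 for the PSMC and PSMD genes and -0.20 for the constitutive core on the log2 scale. PSME1, PSMB9 and the constitutive core gene PSMB4 lay above both mock arrays. The other immunoproteasome genes, PSMB8 and PSMB10, overlapped mock. Leaving out mock replicate 1 put the median of the 3 immunoproteasome genes at -0.01, while leaving out mock replicate 2 put it at 1.20. Of the 39 genes, 31 had a log2 difference below 0, as did 49.7% of all genes, and the median was -0.21, against 0.0024 over all 8045 genes. In 22 of the 39 both MT1-MMP siRNA arrays lay below both mock arrays, and in 3 they lay above; over all genes these shares were 25.3% lower and 24.6% higher. No single gene passed the threshold of a Benjamini-Hochberg adjusted p under 0.05 in limma, neither among the 39 (lowest adjusted p = 0.210) nor among the 8045 (0 called). At an unadjusted p under 0.05, 8 proteasome genes were lower and 1 was higher; over all genes 7.66% were lower and 6.76% higher. All log2 differences are of log2(signal + 32), which understates changes of dim genes. In these bulk samples fewer cells of a kind and less RNA per cell cannot be told apart.

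**Figure D1:**
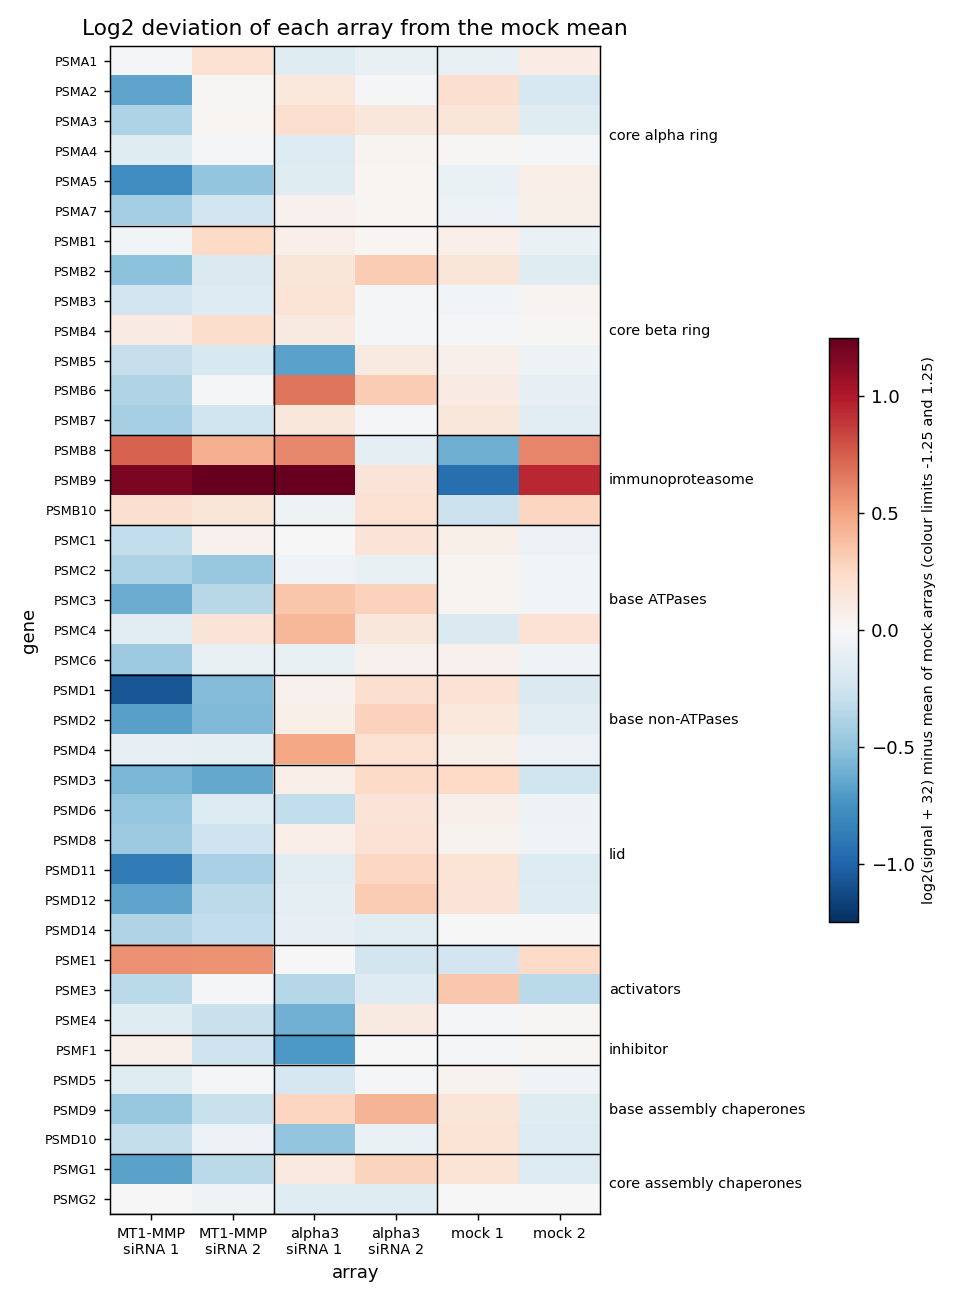
Heat map of the 39 proteasome genes (rows, by subgroup) on the 6 arrays (columns): colour gives log2(signal + 32) minus the mean of the mock arrays, blue lower and red higher, with PSMB9 beyond the colour limit on 2 arrays. The lid rows are blue on both MT1-MMP siRNA arrays, more so on replicate 1 except for PSMD3, while PSMB8 and PSMB9 are blue on mock replicate 1 alone among the mock arrays.

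In the base of the regulatory particle the 8 genes ranged from -0.81 for PSMD1 to 0.0095 for PSMC4. PSMD1, a large scaffold subunit that binds ubiquitin receptors, had signals of 762 and 1115 with MT1-MMP siRNA, against 1855 and 1442 on the mock arrays (log2 difference -0.81, SE 0.23, adjusted p = 0.210). PSMD2, the other scaffold of the base, had 2250 and 2470 against 3987 and 3304 (-0.62, SE 0.17, adjusted p = 0.210). Both groups were apart for both genes, and the second probe set of PSMD1 gave -0.64. PSMD4, a ubiquitin receptor, had 1415 and 1397 with MT1-MMP siRNA, against 1601 and 1438 in mock (-0.11, adjusted p = 0.822), and its other probe sets past the filter gave -0.33 and -0.36. Among the 5 ATPases tested the median was -0.28, and 4 lay below 0, as did 49.7% of all genes. PSMC3, the one with the largest difference, had 805 and 978 with MT1-MMP siRNA, against 1284 and 1223 in mock (-0.48, SE 0.18, adjusted p = 0.283).

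In the lid 6 PSMD genes were tested: PSMD3, PSMD6, PSMD8, PSMD11, PSMD12 and PSMD14. All 6 lay below both mock arrays on both MT1-MMP siRNA arrays, as did 25.3% of all genes. Their median was -0.42 and their range -0.64 to -0.32. SEM1, a lid subunit with another symbol, lay above both mock arrays, with 1488 and 1841 against 1420 and 1058 (0.42, adjusted p = 0.512). Among the PSMD genes of the lid the values were as follows. PSMD11, a scaffold subunit of the lid, had the largest difference, with 697 and 980 with MT1-MMP siRNA, against 1477 and 1153 in mock (-0.64, SE 0.24, adjusted p = 0.288). PSMD3, another scaffold subunit, had 462 and 440 against 839 and 589 (-0.61, SE 0.22, adjusted p = 0.270). PSMD14, the deubiquitinase of the lid, had 2428 and 2545 against 3154 and 3154 (-0.34, adjusted p = 0.353). Over the 17 PSMC and PSMD genes together, chaperones included, the median was -0.35 and 16 lay below 0, against 49.7% of all genes. In 13 both MT1-MMP siRNA arrays lay below both mock arrays, against 25.3% of all genes.

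The core particle had a median nearer 0, and its difference from the regulatory particle was not tested. Its 13 constitutive genes had a median of -0.20, with 10 below 0 and 7 in which both MT1-MMP siRNA arrays lay below both mock arrays. Over all genes these shares were 49.7% and 25.3%. PSMA5, an alpha ring subunit, had the largest difference, with signals of 925 and 1136 with MT1-MMP siRNA, against 1524 and 1705 in mock (-0.64, SE 0.19, adjusted p = 0.215). The other 5 alpha genes lay between -0.33 and 0.09. The value of 0.09 was that of PSMA1, whose other probe sets gave -0.25 and -0.13. Of the catalytic subunits, PSMB5, the chymotrypsin-like one, had 2451 and 2612 with MT1-MMP siRNA, against 3139 and 2870 in mock (-0.24, adjusted p = 0.690). PSMB6, the caspase-like subunit, had 991 and 1285 against 1395 and 1212 and overlapped (-0.20, adjusted p = 0.703). PSMB7, the trypsin-like subunit, had 2121 and 2386 against 3152 and 2567 (-0.33, adjusted p = 0.420). PSMB2, a non-catalytic beta subunit and the lowest of the ring by log2 difference, had 1654 and 2102 against 2643 and 2146 (-0.35, adjusted p = 0.445), while its second probe set gave 0.05. PSMB4 lay above mock on both arrays (0.16), and PSMB1 at 0.11 on one probe set and -0.21 on another.

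**Figure D2:**
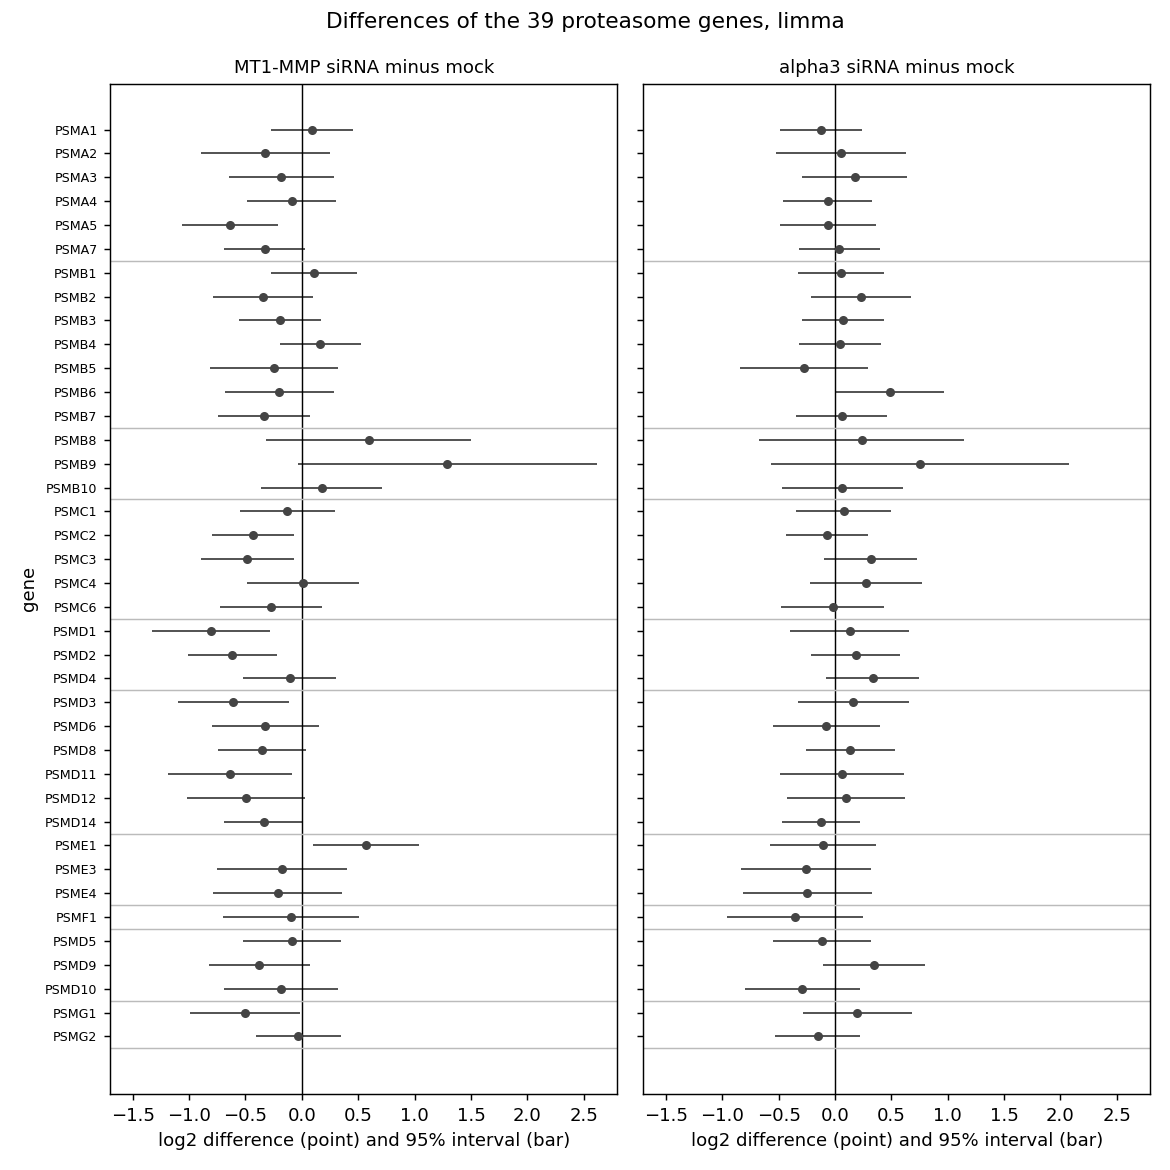
Log2 difference (point) with its 95% interval from limma (bar) for each of the 39 genes, MT1-MMP siRNA minus mock on the left and alpha3 siRNA minus mock on the right, with lines between subgroups in the same order as in the heat map. On the left 31 points lie below 0 and on the right 15, and the widest bars belong to PSMB8 and PSMB9.

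The immunoproteasome genes lay above mock on average, and the mock arrays lay far apart for them. PSMB9 had signals of 362 and 428 with MT1-MMP siRNA, against 58.5 and 302 on the mock arrays (log2 difference 1.29, SE 0.58, adjusted p = 0.355). PSMB8 had 412 and 331 with MT1-MMP siRNA, against 143 and 374 in mock (0.59, SE 0.40, adjusted p = 0.526), and PSMB10 had 216 and 207 against 147 and 227 (0.18, adjusted p = 0.765). Of the 3 genes only PSMB9 had both MT1-MMP siRNA arrays above both mock arrays, as did 24.6% of all genes. Without mock replicate 1 the differences were 0.35 for PSMB9, -0.01 for PSMB8 and -0.09 for PSMB10, and without mock replicate 2 they were 2.23, 1.20 and 0.44. The median of the 3 genes, 0.59 on all arrays, lay between -0.01 and 1.20 depending on which mock array was kept.

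Of the activators, PSME1, a subunit of the interferon-inducible cap, had 2244 and 2227 with MT1-MMP siRNA, against 1267 and 1769 in mock (log2 difference 0.57, SE 0.21, adjusted p = 0.279), and was the only proteasome gene higher at an unadjusted p under 0.05. It was at 0.33 without mock replicate 1 and 0.80 without mock replicate 2. PSME3, the nuclear activator, had 915 and 1149 with MT1-MMP siRNA, against 1471 and 915 in mock (-0.17, adjusted p = 0.789) on its brightest probe set, and its other 3 probe sets gave -0.78, -0.37 and -0.52. PSME4, a large nuclear activator, had 481 and 440 against 533 and 546 (-0.21, adjusted p = 0.732), with its other probe sets at -0.04 and 0.07. PSMF1, which binds the core and can inhibit it, had 532 and 420 against 504 and 512 (-0.10, adjusted p = 0.899) and 0.26 on its second probe set.

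All 5 assembly factors with a PSM symbol lay below 0, as did 49.7% of all genes. In 2 of them both MT1-MMP siRNA arrays lay below both mock arrays, as in 25.3% of all genes. Assembly factors with other symbols went the other way: POMP was at 0.07 with overlapping arrays, and PAAF1 was at 0.32 with both arrays above mock. PSMG1, a chaperone that starts the alpha ring, had 450 and 574 with MT1-MMP siRNA, against 827 and 650 in mock (-0.50, SE 0.21, adjusted p = 0.330), while its partner PSMG2 was at -0.03. PSMD9, a chaperone of the base, had 500 and 577 against 787 and 635 (-0.38, adjusted p = 0.417), with 0.06 on its dimmer probe set. The other base chaperones, PSMD10 and PSMD5, were at -0.18 and -0.09 with overlapping arrays.

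**Figure D3:**
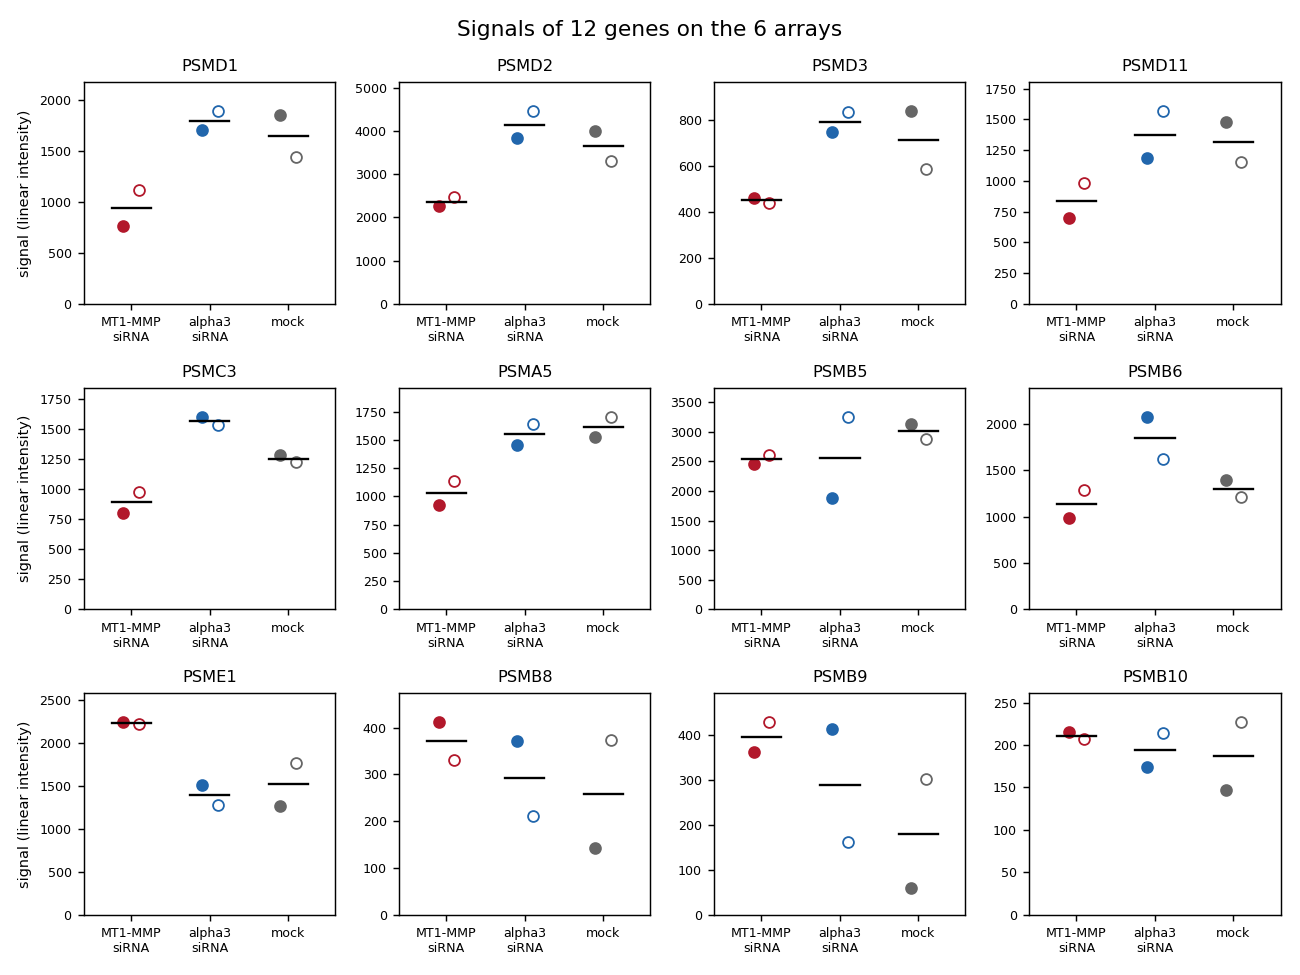
Signals of 12 genes (linear intensity, each axis from 0) with MT1-MMP siRNA (red), alpha3 siRNA (blue) and mock (grey); filled points are replicate 1, open points replicate 2, and lines are means of the 2 arrays. Both red points lie below both grey points for PSMD1, PSMD2, PSMD3, PSMD11, PSMC3, PSMA5 and PSMB5, and both lie above for PSME1 and PSMB9, where the mock points are 58.5 and 302.

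With alpha3 siRNA the proteasome genes stayed close to mock. Their median log2 difference was 0.06, against -0.01 over all genes, with 24 of the 39 above 0 and 15 below, while 52.0% of all genes were below. Both alpha3 siRNA arrays lay above both mock arrays for 6 genes and below for 4, and over all genes these shares were 16.4% and 18.0%. In limma 0 of the 39 were called (lowest adjusted p = 0.855), as were 2 of all 8045 genes, or 0.0249%. This comparison uses the same mock arrays as that of MT1-MMP siRNA, so the values are not independent of each other. At an unadjusted p under 0.05 there were 0 lower and 1 higher, PSMB6, against 3.22% lower and 2.51% higher over all genes. PSMB6 had 2080 and 1625 with alpha3 siRNA, against 1395 and 1212 in mock (log2 difference 0.49, SE 0.21, adjusted p = 0.855).

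The largest differences in the base, the lid, the alpha ring and the assembly factors were smaller than that of PSMB6. That of the immunoproteasome, PSMB9, was larger (0.76), with overlapping arrays. PSMC3 had 1603 and 1535 with alpha3 siRNA, against 1284 and 1223 in mock (0.32, adjusted p = 0.875), and PSMD4 had 2131 and 1735 against 1601 and 1438 (0.34, adjusted p = 0.869). PSMD9 had 858 and 958 against 787 and 635 (0.34, adjusted p = 0.875), with -0.21 on its dimmer probe set. On the brightest probe set of all 3 genes both alpha3 siRNA arrays lay above both mock arrays. In the lid, PSMD3 had 749 and 836 against 839 and 589 and overlapped (0.16, adjusted p = 0.938). PSMA3, an alpha ring subunit, had 1946 and 1864 against 1871 and 1515 and overlapped as well (0.17, adjusted p = 0.926), and PSMG1 was at 0.20 with 799 and 898 against 827 and 650.

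For PSMB5, PSMF1 and PSME4 the 2 alpha3 siRNA arrays differed more than the 2 mock arrays, and for PSME1 and PSME3 less. PSMB5 had 1875 and 3254 with alpha3 siRNA, against 3139 and 2870 in mock (-0.28, adjusted p = 0.915), and was at 0.12 without alpha3 siRNA replicate 1. PSMF1 had 296 and 510 with alpha3 siRNA, against 504 and 512 in mock (-0.36, adjusted p = 0.902), and was at 0.01 without the same array. PSME4 had 345 and 584 against 533 and 546 (-0.25). PSME3 had 902 and 1037 against 1471 and 915 (-0.26), and its other probe sets ranged from -0.19 to 0.39. PSME1 had 1508 and 1275 against 1267 and 1769 (-0.11, adjusted p = 0.956). For the immunoproteasome genes the arrays of both groups overlapped. PSMB9 had 413 and 162 with alpha3 siRNA, against 58.5 and 302 in mock (0.76, adjusted p = 0.911), and PSMB8 had 372 and 212 against 143 and 374 (0.24, adjusted p = 0.954). PSMB10 had 174 and 214 against 147 and 227 (0.07, adjusted p = 0.979). Without mock replicate 1 the 3 lay at -0.19, -0.37 and -0.20 in that order, and without mock replicate 2 at 1.70, 0.85 and 0.33.

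**Figure D4:**
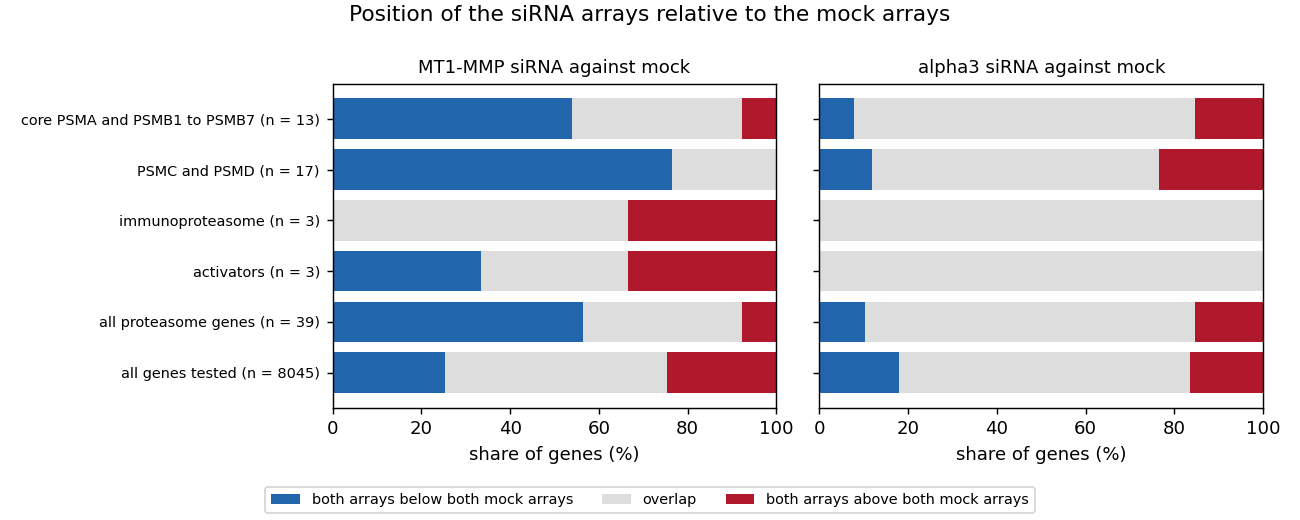
Share of genes (%) in which both siRNA arrays lay below both mock arrays (blue), overlapped them (grey) or lay above both (red), for subgroups of the proteasome genes and for all genes tested, MT1-MMP siRNA on the left and alpha3 siRNA on the right. With MT1-MMP siRNA the blue share is 76.5% for the PSMC and PSMD genes and 53.8% for the constitutive core, against 25.3% of all genes.

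Set against each other, the MT1-MMP siRNA group had lower signals than the alpha3 siRNA group for most of the regulatory particle. The median of the 39 genes was -0.27, against 0.02 over all genes, with 25 below 0, as were 48.1% of all genes. In 20 of the 39 both MT1-MMP siRNA arrays lay below both alpha3 siRNA arrays, and in 3 above, against 25.9% and 28.0% of all genes. At an unadjusted p under 0.05, 14 were lower and 1 higher, against 11.7% lower and 11.7% higher over all genes, and in limma 0 of the 39 were called while 1.39% of all genes were. The lowest adjusted p was 0.0568, for PSMD2, which had 2250 and 2470 with MT1-MMP siRNA, against 3825 and 4453 with alpha3 siRNA (log2 difference -0.80, SE 0.17). PSMD2 passed (adjusted p = 0.0499) with a stricter filter, at the 60th percentile of probe sets. PSMC3 had 805 and 978 against 1603 and 1535 (-0.80, adjusted p = 0.0610), and PSMD1 had 762 and 1115 against 1703 and 1888 (-0.94, adjusted p = 0.0729). PSME1 was higher with MT1-MMP siRNA than with alpha3 siRNA (2244 and 2227 against 1508 and 1275, log2 difference 0.68, adjusted p = 0.109). In 5 genes, PSMB2, PSMC3, PSMD4, PSMD8 and PSMD9, both MT1-MMP siRNA arrays lay below both mock arrays and both alpha3 siRNA arrays above them, as in 4.65% of all genes. The adjusted p of the difference between the siRNAs lay between 0.0610 and 0.189 for these 5. That pattern already sets the siRNA groups apart, so these values are no separate evidence for it. With MT1-MMP siRNA against mock, second probe sets of PSMB2 and PSMD9 gave 0.05 and 0.06. The other probe sets of PSMD4 past the filter gave -0.33 and -0.36, and 0.23 and 0.17 with alpha3 siRNA.

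Gene lists around the proteasome were read beside these values. Among 9 proteasome partners with other symbols, the median with MT1-MMP siRNA against mock was -0.21, with 6 below 0, 0 called in limma and 3 lower at an unadjusted p under 0.05. Over all genes 49.7% were below 0 and 7.66% were lower at that p. In 4 of the 9 both MT1-MMP siRNA arrays lay below both mock arrays, against 25.3% of all genes. In 2, SEM1 (0.42) and PAAF1 (0.32), they lay above, against 24.6%, and POMP was at 0.07. ADRM1, a ubiquitin receptor of the proteasome, had 770 and 956 with MT1-MMP siRNA, 1961 and 1718 in the alpha3 siRNA group, and 1446 and 1049 in mock. Its log2 difference was -0.51 against mock and -1.07 between the siRNAs (adjusted p = 0.0543). UBE3C, a ubiquitin ligase of the proteasome, had 330 and 356 with MT1-MMP siRNA, against 646 and 587 in mock (-0.79, adjusted p = 0.290). UCHL5, a deubiquitinase of the proteasome, had 576 and 607 against 1032 and 758 (-0.56, adjusted p = 0.343). Of the ubiquitin genes and shuttle factors 12 of 18 were tested, with a median of -0.02, 6 below 0, 0 called and 2 lower at an unadjusted p under 0.05, beside the same shares of 49.7% and 7.66% over all genes. NSFL1C, a cofactor of the segregase VCP, had the largest difference (-0.86, adjusted p = 0.210), and VCP itself had 1365 and 1349 with MT1-MMP siRNA, against 2089 and 1784 in mock (-0.50, adjusted p = 0.290). Against mock, alpha3 siRNA gave medians of 0.06 for the partners and -0.05 for the ubiquitin list, with 0 called in either and 1 gene in each higher at an unadjusted p under 0.05, as were 2.51% of all genes.

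Of 13 regulators listed, 11 were tested, and their median difference between MT1-MMP siRNA and mock was -0.13. Neither siRNA gave a call against mock in limma, while at an unadjusted p under 0.05 MT1-MMP siRNA gave 2 lower genes and alpha3 siRNA 0; over all genes these shares were 7.66% and 3.22%. NFE2L1 had 1307 and 1355 with MT1-MMP siRNA, 1399 and 1391 in the alpha3 siRNA group, and 1455 and 1127 in mock, with log2 differences of 0.05 and 0.12 against mock for MT1-MMP siRNA and alpha3 siRNA in that order. NFYA, NFYB and NFYC, the subunits of NF-Y, lay between -0.29 and -0.13 with MT1-MMP siRNA. The mitotic transcription factors FOXM1 and MYBL2 were lower with MT1-MMP siRNA than with alpha3 siRNA and passed the threshold (log2 difference -1.73, adjusted p = 0.0355, and -2.26, adjusted p = 0.0312). FOXM1 had 206 and 270 with MT1-MMP siRNA, 700 and 1041 in the alpha3 siRNA group, and 1096 and 662 in mock. Whether these levels bear on the proteasome genes was not tested.

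Genes of MHC class I antigen processing, the pathway that the immunoproteasome feeds, were mostly above mock with MT1-MMP siRNA. Of 14 tested, 11 had both arrays above both mock arrays and 1 below, the median was 0.53, 8 were higher at an unadjusted p under 0.05 and 0 were called. Over all genes 24.6% had both arrays above, 25.3% had both below and 6.76% were higher at that p. TAP1, whose start lies beside that of PSMB9, had 238 and 232 with MT1-MMP siRNA, 252 and 161 in the alpha3 siRNA group, and 158 and 161 in mock. Its log2 difference with MT1-MMP siRNA was 0.48 (adjusted p = 0.373). TAP2, the other gene of the peptide transporter, was the 1 below both mock arrays. It had 130.5 and 152.8 with MT1-MMP siRNA, against 213.2 and 159.1 in mock (-0.32, adjusted p = 0.520). HLA-B had 1624 and 1161 with MT1-MMP siRNA, 484 and 315 in the alpha3 siRNA group, and 335 and 599 in mock; it passed between the siRNAs (log2 difference 1.73, adjusted p = 0.0425) but not against mock (1.55, adjusted p = 0.160). The HLA genes are near-identical copies, so their probe sets cannot be given to a single gene with certainty. With alpha3 siRNA the list had a median of 0.0006, with 0 called and 0 past an unadjusted p under 0.05. Of the interferon-gamma response list 10 genes were tested of 16, with medians of 0.08 for MT1-MMP siRNA and -0.24 for alpha3 siRNA against mock and 0 called; at an unadjusted p under 0.05, MT1-MMP siRNA gave 2 higher genes and alpha3 siRNA 0, while over all genes these shares were 6.76% and 2.51%. IRF1, a transcription factor that binds the interferon element, had 178 and 152 with MT1-MMP siRNA, 168 and 118 in the alpha3 siRNA group, and 166 and 187 in mock. IFITM1 had 830 and 600 with MT1-MMP siRNA, 289 and 61.1 in the alpha3 siRNA group, and 82.4 and 317 in mock, so that mock replicate 1 and alpha3 siRNA replicate 2 were the low arrays, as for PSMB9. Whether what sets these arrays apart bears on the immunoproteasome values was not tested.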

How the data were processed

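The deposited table holds an intensity per probe set on a linear scale, scaled by the authors before deposit: from the values, the mean over the middle of the distribution (2% trimmed at each end) was 250.1 on every array. Which software summarised the probes is not given in the sources used here. Gene symbols came from the platform annotation: 19065 of 22283 had a single symbol, 1043 had several and 2107 had none, and the last 2 kinds were left out. After a floor of 1, signals were taken as log2(value + 32). The filter kept probe sets whose mean log2 value exceeded the 40th percentile (log2 value 6.31, signal 47.5), which passed 59 of the 62 proteasome probe sets, and the brightest probe set stood for a gene. limma 3.58.1 in R 4.3.3 fitted 3 group means to all 6 arrays (eBayes with trend, 3 residual degrees of freedom), with Benjamini-Hochberg adjustment over 8045 genes; the intervals are its 95% intervals. The scripts were tested on simulated data. Figures were drawn with matplotlib 3.10.9.

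No replicate pair held the same value on more than 78 probe sets. Values on every array are given for the 6 catalytic subunits, the activators, and the gene with the largest difference in each subgroup with each siRNA; PSMD2 and PSMD14 were added after their values were seen. Other lists give up to 4 genes with large differences against mock, with NFE2L1, the NF-Y genes, TAP1, TAP2, IRF1, PAAF1 and POMP added likewise. Members and gene lists were chosen with earlier results of these data known. The alternatives changed the scaling (quantile, or 75th percentile), the offset (1 or 100), the filter (none, or 60th percentile), the treatment of a gene's probe sets (averaged, or each kept), the variance trend, the arrays in the fit and the replicate block. Promoters come from RefSeq, GRCh38.p14. Coordinates are those of RefSeq and not of the arrays' design.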

Additional observations from a re-analysis of the deposited data

How the results depend on the processing

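For MT1-MMP siRNA against mock 0 proteasome genes were called under the alternatives fixed for this work, leaving out each array included (lowest adjusted p = 0.180), and for alpha3 siRNA against mock also 0 (lowest adjusted p = 0.361). Between the siRNAs 1 was called with the filter at the 60th percentile, where fewer genes are tested. The number of proteasome genes below 0 for MT1-MMP siRNA against mock ranged from 28 without MT1-MMP siRNA replicate 1 to 34 without mock replicate 1. Leaving out 1 array at a time, their median log2 difference ranged from -0.37 (without MT1-MMP siRNA replicate 2) to -0.16 (without MT1-MMP siRNA replicate 1), and was -0.33 without mock replicate 2; against alpha3 siRNA it ranged from -0.41 to -0.12 (without MT1-MMP siRNA replicate 2 and replicate 1 in that order). For alpha3 siRNA against mock the median ranged from -0.03 (without mock replicate 2) to 0.11. By subgroup, MT1-MMP siRNA against mock, the alpha ring ranged from -0.41 to -0.0043, the beta ring from -0.30 to -0.16, the ATPases from -0.39 to -0.10, the other base subunits from -0.75 to -0.48, the lid from -0.53 to -0.32 and the immunoproteasome from -0.01 to 1.20. The values nearest 0 came without MT1-MMP siRNA replicate 1, except without mock replicate 1 for the base subunits and the immunoproteasome.

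Counts over all genes moved more, and the cause was not tested. For MT1-MMP siRNA against mock (0 called, 1160 at an unadjusted p under 0.05), 1 gene was called with quantile normalization, 3 with an offset of 1, 6 with an offset of 100, 2 each with the mean of probe sets and with every probe set, and 7 with only the compared groups. For alpha3 siRNA against mock (2 called), there were 1 each with quantile normalization, an offset of 100, no filter, every probe set and only the compared groups, and 0 each with an offset of 1 and the filter at the 60th percentile. Between the siRNAs (112 called) there were 69 with an offset of 1, 22 without a filter, 178 with the filter at the 60th percentile and 72 without the trend. Leaving out 1 array gave 0 to 8 genes, 0 to 9 genes and 0 to 83 genes in the 3 comparisons in this order. With the replicate number as a block, 11 genes were called for MT1-MMP siRNA against mock, 4 for alpha3 siRNA against mock and 114 between the siRNAs, with 0 proteasome genes in each. Deviations of same-numbered arrays correlated at -0.18 between MT1-MMP siRNA and mock, -0.18 between alpha3 siRNA and mock and 0.13 between the siRNAs, so the numbers were not taken to pair the arrays. With mock numbers crossed, a setting added after seeing the data, the replicate block gave 51, 7 and 599 genes, with 0, 0 and 6 proteasome genes among them.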

Other observations

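Over the 59 proteasome probe sets past the filter, 46 had a log2 difference below 0 with MT1-MMP siRNA against mock and 25 with alpha3 siRNA against mock. Of the 15 proteasome genes with 2 or more such probe sets, probe sets of both signs occurred in 6 with MT1-MMP siRNA and in 4 in the alpha3 siRNA group. Probe sets of PSMD1, PSMD11, PSMD12, PSMC2 and PSMA7, genes of the base, lid and alpha ring, all lay below 0 with MT1-MMP siRNA. For PSMD12, a lid scaffold subunit, they gave -0.50 and -0.63.

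Of the 39 genes, 20 had their lowest signal on MT1-MMP siRNA replicate 1 and 3 on replicate 2, while 14 had their highest on alpha3 siRNA replicate 2. FN1, which encodes fibronectin and was listed as a mesenchymal marker, had 12635 and 9354 with MT1-MMP siRNA, 5237 and 1882 in the alpha3 siRNA group, and 1869 and 5529 in mock, so the low arrays were those on which PSMB9 was also low.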
